A study of Homo sapiens with 12 samples.

Results

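Mitotic kinesins are microtubule motors that cells use to build the spindle, move chromosomes and divide. Transcripts of 10 of them, KIF11, KIF15, KIFC1, KIF4A, KIF18A, KIF2C, KIF23, KIF20A, KIF20B and KIF14, were followed through knockdown of FOXM1, of CENPF and of both. The 10 were chosen as named motors of the spindle, the chromosome arms and the midzone, and were found by symbol in the authors' tables. All 10 were among the 14862 genes of the normalized count table, and all 10 passed the filter on low values. KIF20A fell with FOXM1 siRNA, to 59.2% of its control level (limma adjusted p = 0.0363). That call was lost in 8 of 9 fits that left out a library or replicate number. When libraries were paired by replicate number, it held in 6 of 6 fits that left out 1 library. KIF2C, at 81.5%, passed only when libraries were paired by replicate number, and the other 8 passed neither way with that siRNA.

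All cells were parental hTERT-RPE1, human retinal pigment epithelial cells kept dividing by added telomerase. The genotype label was FOXM1 KD, CENP-F KD or Double KD in the groups given those siRNAs and WT in the controls. There were 4 groups of 3 libraries: FOXM1 siRNA (siFOXM1), CENPF siRNA (siCENPF), the 2 siRNAs together (siCENPF+siFOXM1) and a negative-control siRNA (siNeg). Every group, the controls included, was treated overnight with 20 nM siRNA and collected 48 hours after treatment. The sources used here name neither the siRNA sequences nor the duplexes per target, and do not say how the dose was shared in the combined treatment. Nothing in the labels says that the 3 libraries of a group came from separate cultures, so p-values measure only the spread between these libraries. Polyadenylated RNA was sequenced in bulk, in which fewer cells at mitosis and less RNA per cell cannot be told apart.

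Both siRNAs lowered their targets. FOXM1, a forkhead transcription factor of genes used late in the cell cycle, stood at 732, 491 and 816 normalized counts in siFOXM1 libraries 1 to 3, at 729, 816 and 822 in siCENPF+siFOXM1, and at 4186, 4438 and 4763 in siNeg. CENPF, a large kinetochore protein that is itself not a kinesin, stood at 893, 827 and 1017 in siCENPF, at 1360, 1360 and 1284 in siCENPF+siFOXM1, and at 7797, 9537 and 7993 in siNeg. It was higher in siCENPF+siFOXM1 than in siCENPF, without overlap (limma log2 fold change 0.55, adjusted p = 0.0619). With libraries paired by replicate number that adjusted p was 0.000188. In siFOXM1 CENPF stood at 7567, 7448 and 7723, which is 89.8% of siNeg, and did not pass (limma adjusted p = 0.802). Reads counted in genes numbered 13671250 to 35411230 per library, and the 10 kinesins had 273 (KIF15) to 7984 (KIF11) reads each per library. Of the markers of differentiated pigment epithelium, 3 of 7 passed the filter, and RPE65 and TYR were listed at 0 in every library. Group means were 14060 to 18800 normalized counts for BEST1, 511 to 580 for MITF and 239 to 279 for PMEL. BEST1 overlaps the ferritin gene FTH1 on the opposite strand, and reads of the 2 cannot be told apart without a stated strand setting. The keratins KRT8 and KRT18 of simple epithelia summed to between 42.1 and 67.1 FPKM in every library. FPKM rests on the authors' gene widths, which exceed the gene span for 14.8% of genes, so sums of different markers compare only roughly. Summed FPKM of 5 blood and endothelial markers was at most 0.149, with CD3E at 0, and that of 4 keratinocyte or carcinoma markers at most 2.69, with KRT5 at 0. Summed FPKM of 4 neural markers was at most 3.22, with OLIG2 at 0 and SYT1, which alone passed the filter, at group means of 960 to 1095 normalized counts.

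Kinesins step along microtubules by hydrolysing ATP, and those named here act in an order set by the stages of mitosis. KIF11 slides antiparallel microtubules to separate the spindle poles, KIF15 can help keep them apart, and KIFC1 is a minus-end motor that bundles and focuses spindle microtubules. KIF4A works on chromosome arms and at the midzone, KIF18A dampens chromosome movements at the metaphase plate, and KIF2C depolymerizes microtubule ends at centromeres. KIF23 is a subunit of centralspindlin, KIF20A carries the chromosomal passenger complex to the midzone, and KIF20B and KIF14 take part in cytokinesis. Transcripts of many such genes are made from S phase to mitosis. The word TTTGAA near the start of such genes is known as a cell cycle genes homology region and is bound by MuvB complexes, with which FOXM1 can associate. CCAAT is bound by NF-Y, and TAAACA holds the core of forkhead sites.

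Promoters of the 10 kinesins carried TTTGAA often, and the 2 without it were KIF20A and KIF2C. RefSeq promoter windows of 300 bases on GRCh38.p14, 250 before to 50 after the RefSeq start, matched all 10 by symbol and were searched on both strands. TTTGAA was found in 8 of the 10 windows, against 15.2% of 35116 RefSeq promoters and 10.6% of 13914 promoters of genes tested here. CCAAT was found in 8 of 10, against 34.6% and 34.7%, and was missing from KIF2C and KIF15. TTCGAA was found in 0 of 10, against 1.45% and 1.62%, and TAAACA in 0 of 10, against 12.3% and 7.73%. No pair of matches overlapped in the 10 windows. A match is only a match of letters, and other starts of these genes were not searched. The stretches below show each TTTGAA match (or its reverse complement TTCAAA) in capitals, each read on the strand of its gene.
KIF11, chr10:92593090-92593119, plus strand: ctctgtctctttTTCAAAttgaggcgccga
KIF15, chr3:44761747-44761776, plus strand: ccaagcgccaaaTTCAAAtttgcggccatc
KIFC1, chr6:33391815-33391844, plus strand: tggccgttggaaTTCAAAagtggcgggtgt
KIF4A, chrX:70290058-70290087, plus strand: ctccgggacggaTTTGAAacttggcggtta
KIF18A, chr11:28108149-28108178, minus strand: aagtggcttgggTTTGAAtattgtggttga
KIF23, chr15:69414282-69414311, plus strand: ctgattggcccgTTTGAAatgcgccaggcg
KIF20B, chr10:89701602-89701631, plus strand: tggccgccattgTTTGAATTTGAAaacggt
KIF14, chr1:200620733-200620762, minus strand: gcggggcgcccaTTCAAAttgcggccttct

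Counted with the first base of the RefSeq start as 1 and the base before it as -1, the matches began between -55 (KIF23) and 31 (the second of an abutting pair in KIF20B). KIF20A and KIF2C are shown for contrast, since they were the 2 kinesins that passed in siFOXM1 against siNeg. KIF2C passed only with libraries paired by replicate number. Whether lacking TTTGAA goes with lower counts after FOXM1 siRNA was not tested. In KIF20A the capitals mark CCAAT read from the other strand, which begins at -94 and again at -67. The KIF2C stretch is only the part of its window that lies before the start of the gene in the authors' tables. The rest of that window was searched too, and the whole window held none of the 4 words. Other words were not searched for. TTTAAA, for example, can be read in the windows of KIF20A and KIF2C outside the stretches shown, and also in those of KIF23 and KIF14. The share of all promoters with TTTAAA was not worked out. Whether KIF20A and KIF2C have a cell cycle genes homology region with other letters was not tested.
KIF20A, chr5:138179006-138179035, plus strand: ttccttacgcggATTGGtagctgcaggctt
KIF20A, chr5:138179033-138179062, plus strand: cttccctatctgATTGGccgaacgaacgca
KIF2C, chr1:44739587-44739817, plus strand: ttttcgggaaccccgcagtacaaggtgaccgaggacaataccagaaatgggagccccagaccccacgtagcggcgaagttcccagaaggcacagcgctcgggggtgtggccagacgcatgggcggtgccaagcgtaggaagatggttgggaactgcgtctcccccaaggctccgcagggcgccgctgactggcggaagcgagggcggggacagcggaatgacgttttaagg

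In control cells the 10 transcripts spanned a wide range of levels. Compared per length, as RPKM computed from recovered reads and merged exon length, KIF20A averaged 47.2 ± 10.5 in siNeg and KIF11 44.9 ± 4.69 (SD, n = 3 libraries). KIF2C followed at 33.8 ± 6.20, then KIFC1 at 31.5 ± 1.15, KIF23 at 30.4 ± 1.55, KIF20B at 29.9 ± 4.60 and KIF4A at 24.4 ± 1.93. KIF14 stood at 13.04 ± 2.01, KIF18A at 10.7 ± 1.38 and KIF15 at 7.07 ± 1.57. Each neighbour down to KIF4A overlapped the next over the 3 libraries, as did KIF14 and KIF18A. The lowest KIF4A library, at 22.7, lay above the highest KIF14 library, at 15.1, and the lowest KIF18A library, at 9.31, above the highest KIF15 library, at 8.74. With siFOXM1 the mean of KIF20A was 27.8 ± 2.26 and took place 5 among the 10, and with siCENPF+siFOXM1 28.0 ± 3.13, also place 5. With siCENPF it was 39.9 ± 7.03, place 2 after KIF11, and in siNeg it held place 1. KIF11 led in each group given a knockdown siRNA.

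**Figure D1:**
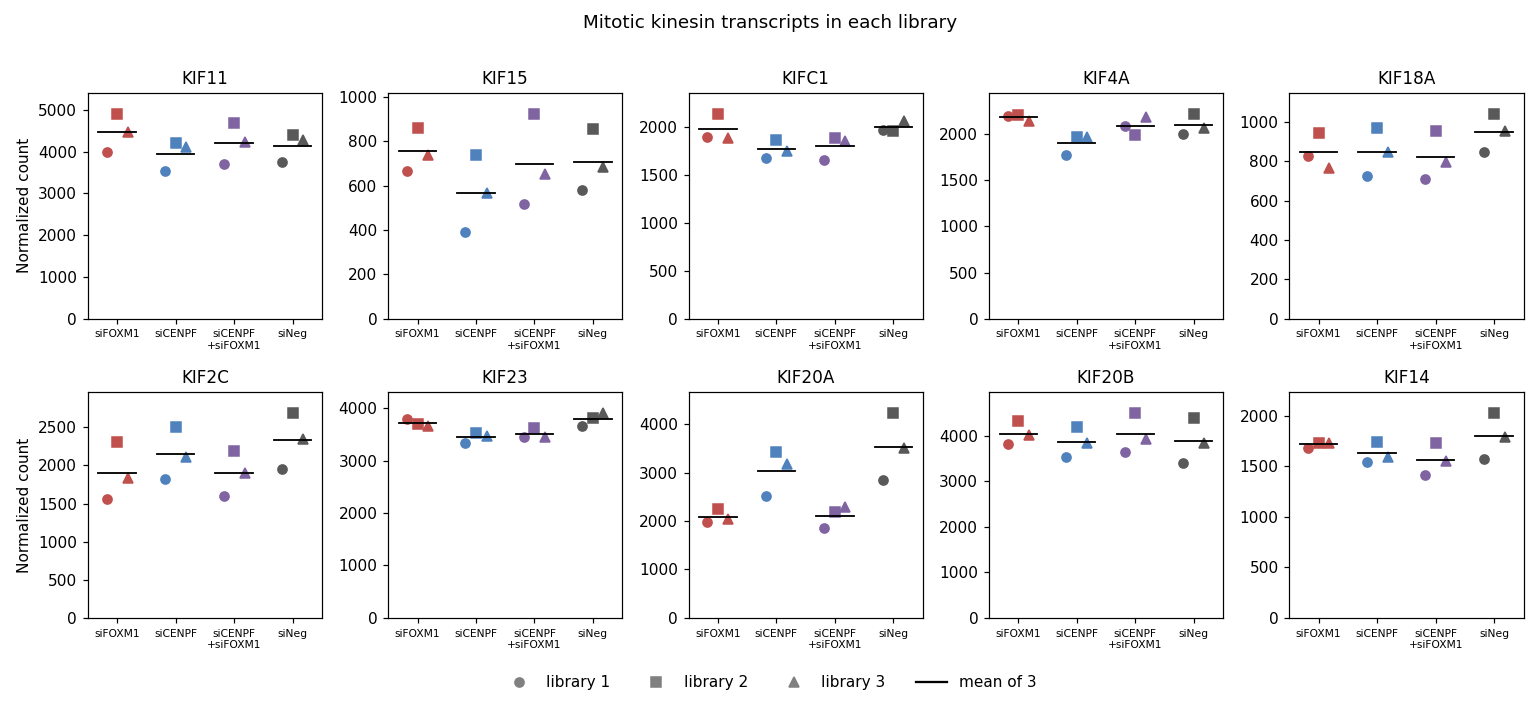
Normalized counts of the 10 kinesins in each of 12 libraries, on axes that start at 0. Marker shape gives the replicate number and bars the mean of 3 libraries. KIF20A libraries of both groups given FOXM1 siRNA lay between 1864 and 2284, all below the lowest siNeg library at 2842.

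The comparison of siFOXM1 with siNeg asked what FOXM1 depletion did to these motors. KIF20A (ENSG00000112984, chromosome 5, 138178719 to 138187715 on hg38, plus strand) had 1988, 2243 and 2045 normalized counts in siFOXM1 libraries 1 to 3, against 2842, 4245 and 3511 in siNeg. All siFOXM1 libraries lay below all siNeg libraries. The mean was 2092 ± 134 in siFOXM1 and 3533 ± 702 in siNeg (SD, n = 3 each). KIF20A fell, with a log2 fold change of -0.74 (SE 0.15, 95% interval -1.05 to -0.42, limma adjusted p = 0.0363). The fold change is on the log2(normalized count + 1) scale, as are those that follow unless said otherwise. Between libraries of the same replicate number the differences were -0.51, -0.92 and -0.78. With replicate number as a block the SE was 0.07 and the adjusted p 2.08e-08. Without the block, leaving out siNeg library 1 kept the call (log2 -0.89, limma adjusted p = 0.0195). Leaving out any other of the 6 libraries, or a whole replicate number, ended it, and over all 9 such fits log2 ran from -0.89 to -0.60 with adjusted p up to 1.0. With the block, KIF20A passed in all 6 fits that left out 1 library (adjusted p at most 3.74e-06).

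KIF20A was the 1 kinesin of 10 called by limma in siFOXM1 against siNeg, where 0.66% of 14857 genes were called in either direction. With the replicate block 2 of 10 were called, both lower, against 8.72% of all genes. The median log2 fold change of the 10 was -0.03, beside -0.0006 over all genes, and 6 of 10 were below 0. In the authors' deposited table KIF20A had a log2 fold change of -0.76 and an adjusted p of 0.000857, and the other 9 had adjusted p of 1.00. KIF20A exons share 132 bases with BRD8 and 68 with CDC23 on the opposite strand. BRD8 had a log2 fold change of 0.12 and CDC23 of -0.03 (limma adjusted p = 0.981 and 0.987), and the sources used here do not say whether counting used strand.

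KIF2C (ENSG00000142945, chromosome 1, 44739818 to 44767767, plus strand) was the other kinesin that passed with the block. It had 1555, 2310 and 1834 normalized counts in siFOXM1, against 1954, 2693 and 2347 in siNeg. The groups overlapped, yet each siFOXM1 library was below the siNeg library of its number, by -0.33, -0.22 and -0.36. Its log2 fold change of -0.30 had an SE of 0.17 without the block (limma adjusted p = 0.757) and of 0.05 with it (adjusted p = 0.000316). With the block it passed whichever of the 6 libraries was left out (adjusted p at most 0.00792). Without the block, leaving out a library or number moved it to between -0.45 and -0.17. It stood at -0.17 without siFOXM1 library 1 and at -0.19 without siNeg library 2. An antisense gene, AL592166.1, shares 175 exon bases with KIF2C and had a log2 fold change of -0.11 (limma adjusted p = 0.874). Without a stated strand setting, reads of the 2 cannot be told apart there.

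The spindle-pole motors did not pass in siFOXM1 against siNeg. KIF11 (chromosome 10, 92593286 to 92655395) had 3984, 4912 and 4479 normalized counts in siFOXM1, against 3760, 4390 and 4276 in siNeg. Its log2 fold change was 0.10 (95% interval -0.14 to 0.34), above 0 in 3 of 3 pairs. KIF15 (chromosome 3, 44761717 to 44873376) had 667, 857 and 737 in siFOXM1 and 581, 854 and 685 in siNeg, a log2 fold change of 0.10 (-0.44 to 0.65). KIFC1 (chromosome 6, 33391536 to 33409924) had 1895, 2145 and 1894 in siFOXM1 and 1975, 1965 and 2068 in siNeg, a log2 fold change of -0.02 (-0.20 to 0.16). The groups overlapped for all 3, and limma adjusted p was 0.923 to 0.991.

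Nor did the motors of the chromosome arms and the plate pass. KIF4A (chromosome X, 70290090 to 70420832) had 2199, 2209 and 2145 in siFOXM1, against 2000, 2222 and 2068 in siNeg (log2 fold change 0.06, 95% interval -0.10 to 0.22, limma adjusted p = 0.941). KIF18A (chromosome 11, 28020620 to 28108308, minus strand) had 826, 945 and 767 in siFOXM1, against 847, 1043 and 952 in siNeg (-0.16, -0.46 to 0.13, adjusted p = 0.878), and was below 0 in 3 of 3 pairs. KIF4A is nearly identical to the intronless copy KIF4B, so its reads are uncertain in their assignment.

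Of the cytokinesis motors KIF20A alone passed. KIF23 (chromosome 15, 69414246 to 69448427) stood at 3792, 3699 and 3656 in siFOXM1 and 3670, 3807 and 3917 in siNeg. KIF20B (chromosome 10, 89701610 to 89774939) stood at 3811, 4314 and 4019 in siFOXM1 and 3397, 4395 and 3848 in siNeg. KIF14, on the minus strand of chromosome 1 from 200551497 to 200620734, had 1686, 1735 and 1736 in siFOXM1 and 1571, 2033 and 1788 in siNeg. Their log2 fold changes were -0.03 for KIF23, 0.07 for KIF20B and -0.06 for KIF14, with groups that overlapped and limma adjusted p of 0.968 to 0.979. The 95% interval of KIF20B, the paralogue of KIF20A, was -0.17 to 0.31, which does not reach the change of KIF20A. Over all genes tested, 13.4% had groups that did not overlap in this comparison, and of the kinesins 1 of 10 did not.

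The comparison of siCENPF with siNeg asked what CENPF depletion did to the same motors. All 10 log2 fold changes were below 0, from -0.35 (KIF15) to -0.004 (KIF20B). Their median was -0.14, beside -0.0006 over all genes, of which 50.2% were below 0. In 9 of the 10, all but KIF20B, every siCENPF library was below the siNeg library of its number. The share of all genes with such a pattern was not worked out, so that count cannot be judged. KIF23, KIF4A and KIFC1 had groups that did not overlap, which is 3 of 10, against 9.31% of all genes in either direction. All 10 were read from the same 6 libraries, so their common sign is not 10 separate observations.

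By limma 0 of 10 kinesins were called in siCENPF against siNeg, where 0.337% of genes were called, and 1 of 10 (KIFC1) had an unadjusted p under 0.05, beside 5.53% of genes. edgeR without the block and DESeq2 on recovered reads also called 0. With the replicate block 1 of 10 was called, KIF15, against 4.52% of genes, and 8 of 10 had an unadjusted p under 0.05, beside 16.9% of genes. KIF15 had 392, 738 and 568 normalized counts in siCENPF, against 581, 854 and 685 in siNeg. The groups overlapped, and paired differences were -0.57, -0.21 and -0.27. The log2 fold change of -0.35 had an SE of 0.25 and a limma adjusted p of 1.00, and with the block an SE of 0.09 and an adjusted p of 0.0186. It no longer passed with the block when library 1 of either group was left out (adjusted p up to 0.176). Without the block its log2 fold change stood at -0.11 without siCENPF library 1, at -0.56 without siCENPF library 2 and at -0.20 without siNeg library 2.

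Values of the 3 kinesins without overlap show how small these differences were. KIF23 had 3346, 3522 and 3465 in siCENPF, against 3670, 3807 and 3917 in siNeg (log2 fold change -0.14, 95% interval -0.28 to 0.00172, limma adjusted p = 0.911). KIF4A had 1778, 1968 and 1963 in siCENPF, against 2000, 2222 and 2068 in siNeg (-0.14, -0.30 to 0.02, adjusted p = 0.992). KIFC1 had 1684, 1871 and 1757 in siCENPF, against 1975, 1965 and 2068 in siNeg (-0.18, -0.36 to -0.0007, adjusted p = 0.898). Each gap was narrow, with the siCENPF means at 90.7%, 90.8% and 88.4% of siNeg. KIF20A had 2516, 3435 and 3174 in siCENPF, against 2842, 4245 and 3511 in siNeg, with groups that overlapped (-0.21, -0.52 to 0.11, adjusted p = 1.00, and 0.0733 with the block). KIF23 exons share 231 bases with an antisense gene, AC027237.3, which had a log2 fold change of -0.22 (limma adjusted p = 0.947). KIFC1 shares 424 with the pseudogene RPL12P1, whose reads cannot be separated from those of other RPL12 copies.

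The remaining 5 overlapped their controls. KIF11 had 3535, 4195 and 4117 in siCENPF and 3760, 4390 and 4276 in siNeg, KIF18A 725, 971 and 846 in siCENPF and 847, 1043 and 952 in siNeg. KIF2C had 1820, 2508 and 2114 in siCENPF and 1954, 2693 and 2347 in siNeg, KIF14 1543, 1743 and 1597 in siCENPF and 1571, 2033 and 1788 in siNeg. KIF20B had 3526, 4199 and 3849 in siCENPF and 3397, 4395 and 3848 in siNeg. Their limma log2 fold changes ran from -0.17 (KIF18A) to -0.004 (KIF20B), with adjusted p of 1.00.

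**Figure D2:**
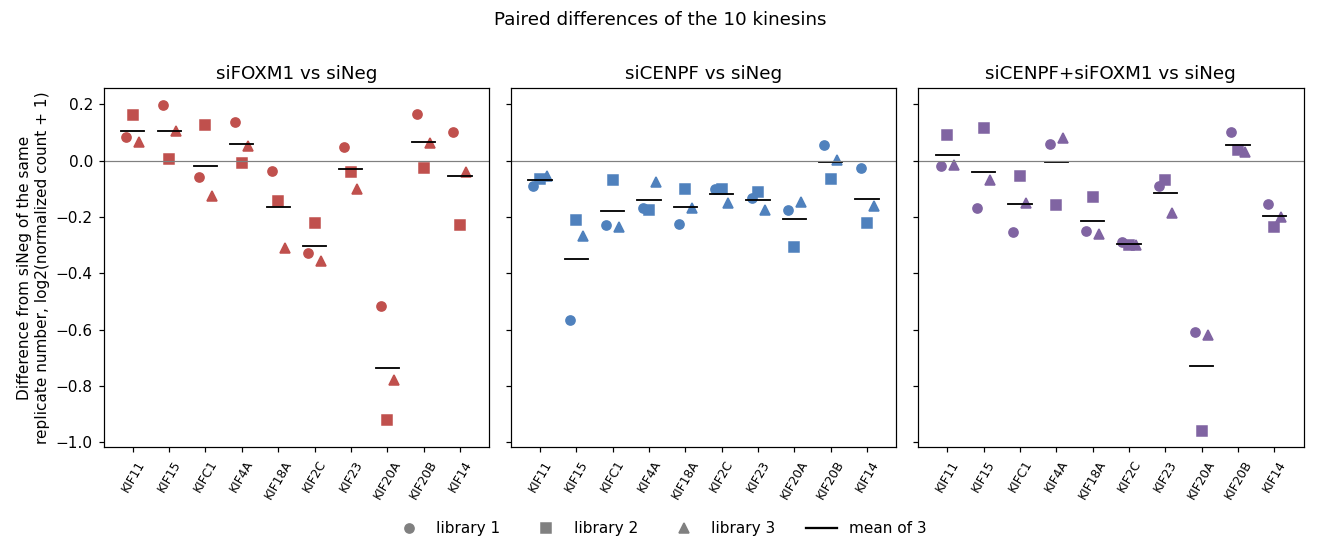
Difference of each knockdown library from the siNeg library of the same replicate number, in log2(normalized count + 1), for siFOXM1 (left), siCENPF (middle) and siCENPF+siFOXM1 (right). Bars are means of 3 differences. KIF20A lay lowest in the left and right panels, at -0.74 and -0.73, while in the middle panel means ran from -0.35 (KIF15) to -0.004 (KIF20B).

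The combined siRNAs were set against siNeg to see whether losing both changed more motors. KIF20A had 1864, 2181 and 2284 normalized counts in siCENPF+siFOXM1, against 2842, 4245 and 3511 in siNeg, again with no overlap, and stood at 59.7% of siNeg. Its log2 fold change was -0.73 (SE 0.15, 95% interval -1.04 to -0.41), with an adjusted p of 0.0530 by limma and 4.05e-08 with the block. KIF2C had 1600, 2190 and 1907, against 1954, 2693 and 2347 in siNeg, with groups that overlapped. Its paired differences of -0.29, -0.30 and -0.30 were close to each other (log2 fold change -0.30, limma adjusted p = 0.809, and 0.00048 with the block). KIF14 had 1410, 1727 and 1554, against 1571, 2033 and 1788 in siNeg, also overlapping (-0.20, adjusted p = 0.764, and 0.0427 with the block). The KIF14 call with the block held in 1 of 6 fits that left out 1 library, and those of KIF20A and KIF2C in 6 of 6. Without the block, KIF2C stood at -0.18 without siCENPF+siFOXM1 library 1 and at -0.19 without siNeg library 2, and KIF14 at -0.12 and -0.10 without the same libraries.

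By limma 0 of 10 kinesins were called in siCENPF+siFOXM1 against siNeg, beside 0.458% of genes, 1 of 10 (KIF20A) had an unadjusted p under 0.05, beside 7.36% of genes, edgeR without the block called 0, and DESeq2 called KIF20A. In the authors' deposited table KIF20A had a log2 fold change of -0.75 and an adjusted p of 0.00172 in this comparison. With the block 3 of 10 were called, all lower, beside 7.9% of genes. The median log2 fold change was -0.13, with 8 of 10 below 0, beside -0.003 over all genes. KIF20A, KIF23 and KIFC1 had groups without overlap, 3 of 10, against 12.9% of genes. KIF23 had 3451, 3631 and 3445 and KIFC1 1655, 1892 and 1861 in siCENPF+siFOXM1, at 92.4% and 90.0% of siNeg (log2 fold change -0.11 and -0.15, limma adjusted p = 0.806 and 0.782).

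The other 5 overlapped siNeg, whose values are given above, and did not pass. KIF11 had 3707, 4675 and 4229 in siCENPF+siFOXM1 and KIF15 517, 924 and 653. KIF4A had 2084, 1993 and 2187, KIF18A 711, 954 and 794, and KIF20B 3645, 4509 and 3929. Their log2 fold changes ran from -0.21 (KIF18A) to 0.06 (KIF20B), with limma adjusted p of 0.829 to 0.994. The 3 comparisons with siNeg share its 3 libraries, so their values are set side by side here and not counted as separate support.

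Between the knockdown groups, KIF20A was the kinesin with the largest fitted difference in siCENPF+siFOXM1 against siCENPF and in siFOXM1 against siCENPF. In siCENPF+siFOXM1 against siCENPF, KIF20A had 1864, 2181 and 2284, against 2516, 3435 and 3174, with no overlap. Its log2 fold change was -0.52 (95% interval -0.84 to -0.21, limma adjusted p = 0.898, and 2.20e-05 with the block). By limma 0 of 10 were called there, beside 0.0808% of genes, with 1 of 10 (KIF20A) at an unadjusted p under 0.05, beside 2.95% of genes, and 0 called by edgeR without the block or by DESeq2. With the block 1 of 10, KIF20A, was called, beside 1.46% of genes. KIF20A (lower) and KIF4A (higher) had no overlap, 2 of 10, beside 7.43% of genes. In siCENPF+siFOXM1 against siFOXM1, KIF20A had 1864, 2181 and 2284, against 1988, 2243 and 2045, and the groups overlapped. The log2 fold change was 0.01, with a 95% interval of -0.31 to 0.32, and of -0.13 to 0.14 with the block. There 0 of 10 were called by limma, with or without the block, beside 0.296% and 0.00673% of genes. None of the 10 had an unadjusted p under 0.05 without the block, beside 1.97% of genes, 2 did with it, beside 7.66%, and edgeR and DESeq2 called 0. KIF23 and KIFC1 lay lower without overlap in siCENPF+siFOXM1, at log2 -0.08 and -0.13, which is 2 of 10, beside 6.79% of genes.

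The comparison of siFOXM1 with siCENPF held differences in both directions. By limma 0 of 10 were called, beside 0.458% of genes, with 2 of 10 (KIF20A and KIF4A) at an unadjusted p under 0.05, beside 6.87% of genes, and edgeR without the block and DESeq2 called 0. With the block 5 of 10 were called, beside 7.57% of genes: KIF20A and KIF2C lower, and KIF11, KIF4A and KIF15 higher. KIF20A had 1988, 2243 and 2045 in siFOXM1, against 2516, 3435 and 3174 in siCENPF (log2 fold change -0.53, limma adjusted p = 0.241, and 5.77e-06 with the block). KIF15 had 667, 857 and 737 in siFOXM1, against 392, 738 and 568 in siCENPF (0.45, adjusted p = 0.819, and 0.00143 with the block). The groups did not overlap for KIF20A and overlapped for KIF15. Both kept the call of the block in all 6 fits that left out 1 library. Without the block, KIF15 stood at 0.21 without siCENPF library 1.

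KIF11, KIF4A and KIF2C were nearer the threshold in siFOXM1 against siCENPF. KIF11 was at log2 0.17, KIF4A at 0.20 and KIF2C at -0.18, with adjusted p of 0.0240, 0.0296 and 0.0298 with the block and 0.854, 0.545 and 0.940 without it. Each of these 3 calls held in 1 of the 6 fits that left out 1 library. Without the block, KIF2C stood between -0.33 and -0.05 with a library left out, and KIF11 at 0.10 without siFOXM1 library 2 or siCENPF library 1. KIF4A, at 2199, 2209 and 2145 in siFOXM1 against 1778, 1968 and 1963 in siCENPF, had no overlap, and KIF11 and KIF2C overlapped. KIF23 (log2 0.11) and KIFC1 (0.16) were also higher without overlap, and did not pass with or without the block. With KIF20A, groups did not overlap for 4 of 10, beside 11.7% of genes.

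The interaction asked whether the combined siRNAs departed from the sum of the single ones on the log scale. For KIF20A it was 0.22 (SE 0.21, 95% interval -0.23 to 0.66, limma adjusted p = 1.00). With the block the interval was 0.02 to 0.41 and the adjusted p 0.477. Of the 10 kinesins limma called 0, beside 0% of genes. Unadjusted p was under 0.05 for 0 of the 10 and for 353 of 14857 genes. With the block 0 of 10 were called, beside 0.841% of genes, 1 of 10 (KIF20A) had an unadjusted p under 0.05, beside 8.52% of genes, and edgeR and DESeq2 also called 0 of the 10. KIF15 had the widest interval, -0.57 to 0.98, and -0.05 to 0.46 with the block. CENPF was lowered less in siCENPF+siFOXM1 than in siCENPF, and neither the interaction nor the comparisons between knockdown groups were adjusted for that.

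The replicate numbers, whose meaning the labels do not state, moved all 10 kinesins together. Relative to the means of their groups, the 10 were all below 0 in libraries numbered 1, with a median of -0.14 on the log2 scale. They were all above 0 in libraries numbered 2, with a median of 0.13, and had a median of 0.0003 in libraries numbered 3. KIF15 moved most, by -0.33 and 0.34 in libraries 1 and 2, and KIF23 least, by -0.02 and 0.02. Over all genes the medians were -0.001, 0.00006 and 0.003. Other late cell cycle genes moved the same way (medians of -0.15, 0.20 and -0.03 over 16 genes), and S phase genes did not (-0.08, -0.11 and 0.20 over 15). The medians of the 10 by siRNA were -0.03 in siFOXM1, -0.14 in siCENPF and -0.13 in siCENPF+siFOXM1 against siNeg. Those are differences between groups, whereas the values by replicate number are deviations from group means, so the sizes are not directly comparable.

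Patterns over the libraries split the kinesins. After the mean of each replicate number was subtracted, KIF20A and KIF2C had a Pearson's r of 0.94 over the 12 libraries. KIF23 and KIFC1 had an r of 0.80, KIF23 and KIF14 0.77, and KIF11 and KIF15 0.77. KIF20A and KIF11 ran in opposite directions, at -0.65, as did KIF2C and KIF20B, at -0.75. The 12 points hold 4 treatment groups, so these values mostly describe how alike the group means were, and they carry no test.

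**Figure D3:**
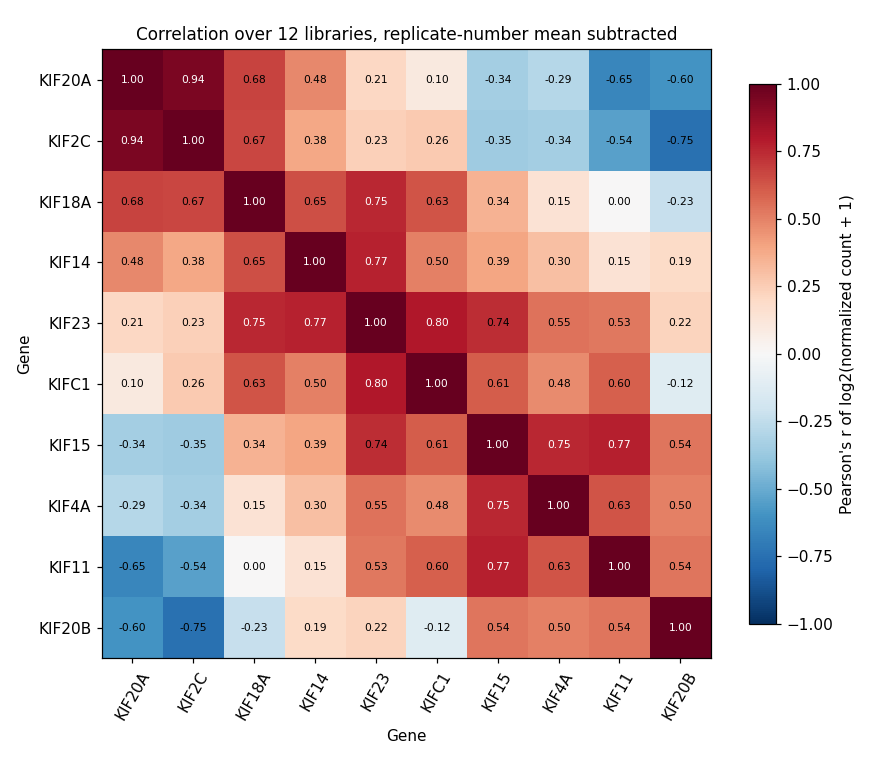
Pearson's r between kinesins over 12 libraries, from log2(normalized count + 1) with the mean of each replicate number subtracted, on a color scale of -1 to 1. KIF20A and KIF2C had the highest r (0.94), and both had negative r with KIF11 and KIF20B.

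Among 11000 other genes with a symbol and a mean of at least 100 normalized counts, the 5 closest to KIF20A by this measure were SEPT11 (r = 0.98), CEP55 (0.97), TNFAIP8L1 (0.97), CCNF (0.97) and CCNA2 (0.97). CEP55 recruits the abscission machinery to the midbody, CCNF is a substrate adaptor of an SCF ubiquitin ligase, and CCNA2 is the A-type cyclin of S and G2 phase. In siFOXM1 against siNeg, CEP55 (log2 fold change -0.48), CCNF (-0.65) and CCNA2 (-0.63) fell (limma adjusted p = 0.0113, 0.0025 and 0.0054). SEPT11 (-0.16) and TNFAIP8L1 (-0.69) did not pass (adjusted p = 0.780 and 0.772). All 5 were picked by likeness to KIF20A over libraries that include these groups, so their falls are not separate support. More genes were listed for KIF20A than for the other kinesins because earlier results of these data had singled it out. For the other kinesins the closest gene was UBE2V1 for KIF11, SOS2 for KIF20B, GPATCH4 for KIF23, MEX3A for KIF14, NUP133 for KIF18A, DDRGK1 for KIF2C, BRD3 for KIF4A, CHCHD6 for KIFC1 and SDC1 for KIF15, with r of 0.94 to 0.98.

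Other kinesins were described from lists chosen with earlier results known. Of 6 further mitotic kinesins 4 were tested (CENPE, KIF2A, KIF18B and KIF22), and limma, edgeR without the block and DESeq2 called 0 of 4 in siFOXM1, siCENPF or siCENPF+siFOXM1 against siNeg, with 0 at an unadjusted p under 0.05 by limma. Their median log2 fold changes were 0.07, -0.09 and -0.01 in that order of groups. CENPE, which links kinetochores to microtubule plus ends, averaged 4045 in siFOXM1, 3455 in siCENPF, 4056 in siCENPF+siFOXM1 and 3656 in siNeg. KIF22, a motor of chromosome arms, passed only with the block in siFOXM1 (log2 fold change 0.20, adjusted p = 0.0175, and 0.812 without it). Of 28 remaining kinesins 18 were tested, and limma called KIF3B, a subunit of a motor used in cilia, in siFOXM1 and 0 in the other comparisons with siNeg. Over all genes limma called 0.66% in siFOXM1, 0.337% in siCENPF and 0.458% in siCENPF+siFOXM1. KIF3B rose in siFOXM1 to 1925 normalized counts, against 1465 in siNeg (log2 fold change 0.39, SE 0.07, limma adjusted p = 0.0235). It had 1828 in siCENPF (0.32, limma adjusted p = 0.117, and 0.00077 with the block) and 1806 in siCENPF+siFOXM1 (0.30, adjusted p = 0.128, and 0.000932 with the block). Unadjusted p was under 0.05 for 1 of the 18 in siCENPF and 2 in siCENPF+siFOXM1, where edgeR without the block called 0 and DESeq2 1 in each. The median of the 18 was 0.0005 in siFOXM1, -0.08 in siCENPF and -0.06 in siCENPF+siFOXM1.

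Few partners of the mitotic kinesins passed the test. Of 24 partners and regulators, all tested, limma called 1 lower and 0 higher in siFOXM1, 0 in siCENPF and 1 lower in siCENPF+siFOXM1 against siNeg. Over all genes it called 0.66%, 0.337% and 0.458% in that order of groups. In siCENPF 3 had an unadjusted p under 0.05, beside 5.53% of genes, edgeR without the block called 0 and DESeq2 1. There limma with the block called 3 lower and 1 higher, beside 4.52% of genes. The gene that limma called without the block was KPNA2, an importin alpha that binds spindle factors such as TPX2. KPNA2 fell to 7345 in siFOXM1 and 6896 in siCENPF+siFOXM1, against 9705 in siNeg (log2 fold change -0.40 and -0.49, limma adjusted p = 0.0244 and 0.00866). In siCENPF KPNA2 averaged 8428, with a log2 fold change of -0.205 (limma adjusted p = 0.655, and 0.0075 with the block). AURKA, a kinase of centrosomes and spindle poles, averaged 3259 in siFOXM1, 2302 in siCENPF, 2694 in siCENPF+siFOXM1 and 2936 in siNeg. In siCENPF its log2 fold change was -0.35 (limma adjusted p = 0.378, and 5.78e-05 with the block). NEK7, a kinase of the spindle, averaged 3492 in siFOXM1, 4971 in siCENPF, 4417 in siCENPF+siFOXM1 and 3853 in siNeg. NEK7 was lower in siFOXM1 than in siCENPF (log2 fold change -0.51, limma adjusted p = 0.0139). It was the 1 of 24 partners that limma called in that comparison, beside 0.458% of genes. Most partners lay the other way there, with a median of 0.12 and 5 of 24 below 0. With the block 8 were called higher and 2 lower, beside 7.57% of genes. Against siNeg, NEK7 was at 0.36 in siCENPF (limma adjusted p = 0.0934, and 0.00015 with the block). In siFOXM1 it was at -0.14 (adjusted p = 0.738, and 0.137 with the block).

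The medians of the 24 partners were 0.04 in siFOXM1, -0.11 in siCENPF and -0.03 in siCENPF+siFOXM1. With siCENPF 23 of 24 partners were below 0, beside 10 of 10 kinesins and 50.2% of all genes. So were 13 of 18 remaining kinesins, 14 of 16 late cell cycle genes and 15 of 15 S phase genes. These genes were all read from the same libraries, so such counts are not separate observations. The midzone factor PRC1, which binds KIF4A, was at log2 -0.01 in siFOXM1, -0.12 in siCENPF and -0.08 in siCENPF+siFOXM1. RACGAP1, which pairs with KIF23 in centralspindlin, was at 0.04, -0.17 and -0.09 in the same groups. AURKB, which KIF20A carries to the midzone, was at 0.05, -0.13 and -0.01, with limma adjusted p of 0.921 or more for all 3 genes.

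**Figure D4:**
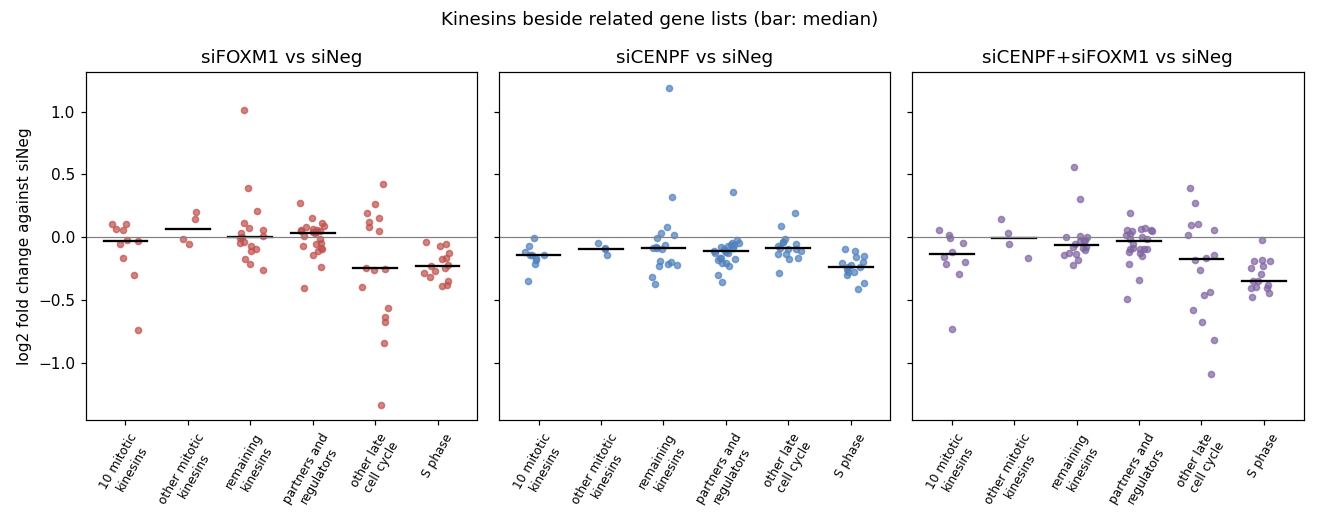
log2 fold changes against siNeg of the 10 kinesins and of 5 lists, for siFOXM1 (left), siCENPF (middle) and siCENPF+siFOXM1 (right). Each point is a gene and each bar a median. In the left and right panels KIF20A, at -0.74 and -0.73, lay within the range of the late cell cycle genes and below the other 9 kinesins.

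Some late cell cycle genes fell alongside KIF20A. Of 16, limma called 4 lower in siFOXM1 and in siCENPF+siFOXM1 against siNeg, namely CCNA2, CCNB1, CDKN3 and NEK2, and 0 in siCENPF. Over all genes it called 0.66% in siFOXM1, 0.458% in siCENPF+siFOXM1 and 0.337% in siCENPF, in either direction. CCNB1, the B-type cyclin of mitotic entry, averaged 1684 in siFOXM1, 2537 in siCENPF, 1687 in siCENPF+siFOXM1 and 2693 in siNeg. Its log2 fold change was -0.67 in siFOXM1 (limma adjusted p = 0.0113), close to that of KIF20A. CDKN3, a CDK-associated phosphatase, was at -1.33 and NEK2, a centrosomal kinase, at -0.84 (adjusted p = 0.00571 and 0.0280). The medians of the 16 were -0.24 in siFOXM1, -0.09 in siCENPF and -0.17 in siCENPF+siFOXM1. With the block 9 of the 16 were called lower and 3 higher in siFOXM1, 1 lower in siCENPF, and 7 lower and 2 higher in siCENPF+siFOXM1. Over all genes limma with the block called 8.72%, 4.52% and 7.9% in that order of groups. The 3 higher in siFOXM1 were TTK (log2 fold change 0.43), TOP2A (0.19) and CKS2 (0.27). Their adjusted p by limma with the block was 4.11e-05, 0.00594 and 0.0185. In siCENPF 0 of 16 had an unadjusted p under 0.05, and edgeR without the block and DESeq2 called 0. Of 15 S phase genes limma called 0 in each knockdown group, and all 15 were below 0 in each, with medians of -0.23, -0.24 and -0.35. Unadjusted p was under 0.05 for 2, 1 and 6 of these 15, and edgeR without the block and DESeq2 called 0. With the block 9, 8 and 12 were called lower, beside 8.72%, 4.52% and 7.9% of all genes called in either direction. The part that the number of cells in each phase had in the kinesin values was not tested.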

How the data were processed

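Libraries of polyadenylated RNA from 12 samples in 4 groups of 3 were used. The submitters' processing notes list the build hg38 and the tools bcl2fastq, Trimmomatic, TopHat and edgeR, without versions. The authors deposited FPKM and normalized counts. The normalized counts were used as a signal, and how the authors scaled them is not stated. Their 3 edgeR tables, of each knockdown group against siNeg, give CPM per library and, for the comparison, a log2 fold change with its p-value and likelihood-ratio score, per the file headers. No per-sample column was left out.

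The main test was limma 3.58.1 (R 4.3.3, trend and robust) on log2(normalized count + 1), with all 12 libraries, 4 group means and no block. It covered 14857 genes that reached 10 normalized counts in 3 or more libraries. Tests were two-sided, adjusted by the Benjamini-Hochberg method over all genes, with a threshold of 0.05. Intervals are 95% intervals of limma. Alternatives were the replicate number as a block, the FPKM table, edgeR 4.0.16 and DESeq2 1.42.0 on recovered reads, other pseudocounts and filters, only the groups compared, and each library or number left out. Leaving out libraries from the fit with the block was added after seeing the data. The limma test without the block was tried on simulated data that held no effect of replicate number. The fit with the block was not simulated, so that trial does not bear on its calls.

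Reads were recovered from CPM: 100% of values were whole within 0.01 reads, and 0 of 172773 values differed from reads worked out from FPKM. They covered 14556 genes. Replicates differed beyond sampling noise in every pair. Deviations from group means correlated at 0.272 to 0.639 in 18 pairs of libraries with the same replicate number and at -0.510 to 0.0248 in 36 pairs with different numbers, so the numbers were taken to pair the libraries. The authors' gene widths exceed the span of the gene for 14.8% of genes, so levels between kinesins used merged exons of GENCODE 29, whose positions for the 10 were the same as the authors'.

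All 10 kinesins, CENPF and FOXM1 were named, up to 4 genes of each list by smallest adjusted p, and the genes closest in pattern. PRC1, RACGAP1, AURKB, TTK, TOP2A, CKS2 and markers at 0 or past the filter were named after their values were seen. The kinesins and the lists were chosen with earlier results of these data known.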

Additional observations from a re-analysis of the deposited data

How the results depend on the processing

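With the replicate number as a block, limma called 2, 1, 3, 1 and 5 of the 10 kinesins in siFOXM1, siCENPF and siCENPF+siFOXM1 against siNeg, siCENPF+siFOXM1 against siCENPF, and siFOXM1 against siCENPF, against 1, 0, 0, 0 and 0 without it. edgeR with the replicate block gave the same 5 counts, and the block changed no other count of kinesins. KIF20A in siFOXM1 lost its call on the FPKM table (0 kinesins, log2 -0.72, adjusted p = 0.126) and with only the 2 groups compared (0 kinesins, adjusted p = 0.0880). DESeq2 called 1 kinesin, KIF20A, in siCENPF+siFOXM1. The cause was not tested. With each library or replicate number left out, the count was 0 to 1 in siFOXM1 and in siCENPF+siFOXM1 against siNeg, and 0 in the other 5 comparisons.

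Of 379 single-gene values under other settings 353 kept direction and side of the threshold, 23 passed newly, 2 no longer passed and 1 turned sign: KIF4A in siCENPF+siFOXM1, at log2 0.000236 by edgeR with the block. Of 348 with a library or number left out 30 turned sign, none of them past the threshold. Ranges in siFOXM1 were -0.0246 to 0.161 for KIF20B, -0.0705 to 0.00287 for KIF23, -0.149 to 0.0367 for KIF14, -0.0929 to 0.0334 for KIFC1 and -0.0289 to 0.248 for KIF15. In siCENPF they were -0.138 to 0.00798 for KIF11 and -0.0959 to 0.0900 for KIF20B. In siCENPF+siFOXM1 they were -0.0620 to 0.105 for KIF11, -0.0357 to 0.150 for KIF20B, -0.0485 to 0.0700 for KIF4A and -0.264 to 0.155 for KIF15. KIF20A in siCENPF+siFOXM1 against siFOXM1 ranged from -0.0668 to 0.0952.

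Over all genes, limma called 98, 50 and 68 in the 3 comparisons with siNeg in the order above, 1295, 671 and 1174 with the block, and 40, 6 and 36 with only the groups compared. DESeq2 called 249, 138 and 165, and edgeR with the block 1323, 708 and 1242. In siCENPF+siFOXM1 against siFOXM1 and against siCENPF, siFOXM1 against siCENPF, and the interaction, limma called 1, 12, 68 and 0, with the block 44, 217, 1125 and 125, DESeq2 4, 33, 158 and 22, and edgeR with the block 41, 226, 1134 and 120. With only the groups compared siCENPF+siFOXM1 against siCENPF gave 3 and siFOXM1 against siCENPF 12, or 38 on the FPKM table. Groups of 3 limit every interval, and differences as small as most of those here were not detectable without the block.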
